A study of Mus musculus with 64 samples.

Results

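The 10 genes described here set the contractile type of a muscle fibre and were followed through the skeletal muscle of Myc knockout and wild-type mice. They were chosen by symbol and not by a cut on their values, but with earlier results of these data known. They are Myh1, Myh2, Myh4, Myh7, Myh3, Myh8, Tnni1, Tnni2, Tnnt1 and Tnnt3. All 10 listed symbols were found, among 36332 gene identifiers in the deposited expression table, and all 10 passed the filter on low values.

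The series measured poly-A messenger RNA in 64 libraries from 3 tissues, and the 20 skeletal muscle libraries are described here, each from a different animal. Mice labelled KO came from a cross of 2 lines given on B6.129 backgrounds. The first carries the Gt(ROSA)26Sortm1(cre/ERT2)Tyj allele, a tamoxifen-activated Cre recombinase expressed from the Rosa26 locus throughout the body, and the other the floxed Myc allele Myctm2Fwa (B6.129S6, Mmjax), which that Cre excises. Mice labelled WT were C57/B6. The labels give both genotypes the same treatment at weaning, 5 daily intraperitoneal injections of tamoxifen at 75 mg/kg in corn oil once a body weight of 15 g was reached, so tamoxifen was common to all groups. There were 6 WT and 4 KO muscle libraries at 5 months, and 5 WT and 5 KO at 20 months. Animals are named by their library codes: W or K for the genotype, 5 or 18 for the age, S for skeletal muscle, and the animal's number. The codes of the older mice say 18 while their age label says 20 months, which is used here. The labels do not say which muscle was taken, and the strain given for WT names neither the Cre nor the floxed allele.

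Skeletal muscle fibres are typed by the myosin heavy chain they contain, the motor protein that pulls on actin and whose speed sets the speed of shortening. Slow, oxidative type I fibres use the chain encoded by Myh7, and the fast types IIA, IIX and IIB use those of Myh2, Myh1 and Myh4, in order of rising speed and falling oxidative capacity; limb muscles of mice differ widely in this mixture. Troponin I and troponin T, subunits of the calcium switch on the thin filament, come as slow forms (Tnni1, Tnnt1) and fast forms (Tnni2, Tnnt3). Myh3 and Myh8 encode the embryonic and neonatal heavy chains, which are replaced after birth and return in regenerating fibres.

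Of the 6 myosin genes, 5 lie side by side on the plus strand of chromosome 11 (build GRCm38.p6): Myh3 at chr11:67078273-67102291, Myh2 at chr11:67171027-67197517, Myh1 at chr11:67200102-67224577, Myh4 at chr11:67237812-67260447 and Myh8 at chr11:67277124-67308634. Myh7 lies apart, on the minus strand at chr14:54970684-54994626. The slow troponin genes are at chr1:135783033-135810989 (Tnni1, plus strand) and chr7:4504569-4515975 (Tnnt1, minus strand). The fast troponin genes lie near each other on the plus strand, Tnni2 at chr7:142441816-142444410 and Tnnt3 at chr7:142498771-142516213. Coding lengths ran from 5805 to 5826 bases for the 6 myosins and from 561 to 816 bases for the 4 troponins.

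RefSeq promoters of the same build were at hand for 8 of the 10 genes, all but Tnni2 and Tnnt3. The 250 bases before the start of Myh1, Myh2, Myh4 and Myh8 share an exact run of 14 bases, the longest common to all of them, which begins 160, 125, 158 and 54 bases before the start, respectively. Of 32851 promoters of the same length, 4 hold that run on either strand, those of these same genes, which is 0.0122%. Because the run was taken from these 4 promoters, its presence in them was given beforehand. Its absence elsewhere was not tested against chance. The 74 bases around it are shown because they set the fast and neonatal myosins of the chromosome 11 cluster side by side, with the shared run in capitals, each on the plus strand.
Myh2, chr11:67170872-67170945: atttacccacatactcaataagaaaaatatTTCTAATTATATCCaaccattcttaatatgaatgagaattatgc
Myh1, chr11:67199912-67199985: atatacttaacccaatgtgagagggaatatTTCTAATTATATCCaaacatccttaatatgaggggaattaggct
Myh4, chr11:67237624-67237697: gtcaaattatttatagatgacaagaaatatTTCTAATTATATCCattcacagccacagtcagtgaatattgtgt
Myh8, chr11:67277040-67277113: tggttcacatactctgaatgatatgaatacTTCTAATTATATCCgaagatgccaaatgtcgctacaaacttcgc

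Upstream sequences of the 3 slow genes are shown because their messages followed each other most closely across the libraries. Capitals mark matches, on either strand, to the patterns YTAWWWWTAR for MEF2 and CCWWWWWWGG for CArG, to the MCAT core CATTCC and to TATAAA. Y stands for C or T, W for A or T and R for A or G. Of all promoters of this length, 2.92%, 1.47%, 12.6% and 12.4% hold them. E-boxes, CANNTG, are left in lower case, since 66.2% of promoters hold at least 1. Myh7 has 1 MCAT match, Tnnt1 has 1 TATAAA match, and the Tnni1 sequence has none of the 4.
Myh7, chr14:54994627-54994876, minus strand: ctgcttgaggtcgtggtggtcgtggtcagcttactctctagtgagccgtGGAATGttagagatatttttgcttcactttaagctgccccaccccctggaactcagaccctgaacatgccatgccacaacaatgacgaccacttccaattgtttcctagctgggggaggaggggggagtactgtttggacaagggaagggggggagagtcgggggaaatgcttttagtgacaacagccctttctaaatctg
Tnnt1, chr7:4515976-4516225, minus strand: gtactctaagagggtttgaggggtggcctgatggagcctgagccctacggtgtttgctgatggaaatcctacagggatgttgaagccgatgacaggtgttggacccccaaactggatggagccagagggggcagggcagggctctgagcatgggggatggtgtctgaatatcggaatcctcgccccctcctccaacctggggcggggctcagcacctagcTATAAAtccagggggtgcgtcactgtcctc
Tnni1, chr1:135799171-135799420, plus strand: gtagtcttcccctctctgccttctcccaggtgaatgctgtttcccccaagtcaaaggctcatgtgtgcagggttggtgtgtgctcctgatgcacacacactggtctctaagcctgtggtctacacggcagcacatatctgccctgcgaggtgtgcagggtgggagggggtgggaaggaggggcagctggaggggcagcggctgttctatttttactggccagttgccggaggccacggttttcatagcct
The start used for Tnni1 lies inside the annotated gene, downstream of its outermost start. A MEF2 match stands in the same window of Myh1, Myh4 and Myh8, where it overlaps a reversed TATAAA, and none was found in these letters of Myh2, Myh3, Myh7, Tnni1 or Tnnt1.

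Values are in CPM as the deposited table heads its columns. The muscle columns sum to between 1.08 and 1.32 M (M for 1e6), so the scale holds a further factor beside depth, and 1 read was worth 0.05 to 0.0821 CPM. Depth ran from 15.4 to 22.4 M reads per library, with a median of 19.4 M reads. Markers of skeletal muscle (Ckm, Acta1, Mb, Des, Tcap) summed to between 60047 and 86170 CPM in every library, and the 10 genes themselves took 7.09% to 9.69% of all reads. Of the 10 libraries from 5 months, 4 (WT mice W5S5041 and W5S5042 and KO mice K5S5116 and K5S5118) had Xist and no Y-chromosome transcripts, while the other 16 muscle libraries had Y-chromosome transcripts. The library of WT mouse W18S42, at 20 months, held 2382 CPM of hepatocyte markers (Alb, Apoa1, Ttr) against at most 34.8 CPM in the other 19. Myc, the targeted gene, stood at 6.15 to 81.3 CPM in WT and 5.00 to 17.1 CPM in KO at 5 months, and at 4.97 to 13.1 and 1.75 to 10.2 CPM at 20 months. The genotypes overlapped at both ages and neither difference passed the test over all genes. The log2 difference was -1.13 at 5 months (adjusted p = 0.9999) and -0.49 at 20 months (adjusted p = 0.66, limma). Unadjusted, p was 0.042 at 5 months, where 543 of 13237 genes had one under 0.05, and 0.35 at 20 months (limma). Myc fell with age in WT (-1.41, adjusted p = 0.049) and did not pass in KO (-0.77, adjusted p = 0.38, limma). Lower Myc in KO was thus not established, and every genotype comparison here rests on the labels. In bulk RNA, fewer fibres of a type and less message per fibre cannot be told apart. Replicates are animals by their label numbers alone, and p-values measure the spread between these samples, which may be partly technical.

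The data show a muscle of fast fibres with a small and very uneven slow component. Type IIB myosin, Myh4, made up most of the adult heavy chain message in all 20 libraries, and its level varied little. The slow genes Myh7, Tnni1 and Tnnt1 went up and down together over ranges of 96.9-fold (Tnni1) to 332-fold (Myh7), and both the 3 highest and the 2 lowest libraries came from mice of 5 months. None of the 10 genes passed the test between KO and WT at either age. With age, Myh8 alone passed, falling in WT.

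Myh7, the slow heavy chain, was by far the most uneven of the 10 genes. In WT at 5 months it stood at 1506 CPM in mouse W5S5004, 1446 in mouse W5S5007, 242 in mouse W5S5042, 84.3 in mouse W5S5041, 6.33 in mouse W5S5299 and 5.25 in mouse W5S5277. The highest of these was 287 times the lowest, within a single group of the same age and genotype. In KO at 5 months the values were 1743 CPM in mouse K5S4285, 406 in mouse K5S5118, 379 in mouse K5S5116 and 110 in mouse K5S4284. At 20 months WT mice had 71.0 (W18S45), 31.9 (W18S72), 20.1 (W18S66), 17.5 (W18S41) and 8.12 CPM (W18S42). KO mice of that age had 282 (K18S48), 61.2 (K18S63), 56.0 (K18S61), 32.7 (K18S62) and 18.9 CPM (K18S64). The 5 highest of the 20 libraries were all from 5 months, and so were the lowest and the next lowest, so the values of the older mice lay inside the range of the younger ones. The SD of log2 values was 3.52 in WT and 1.63 in KO at 5 months, and 1.10 and 1.43 at 20 months; differences between these spreads were not tested. Around the group means, the SD of Myh7 was 2.28 on the log2 scale, larger than that of 99.9% of the 13237 genes tested, whose median was 0.26.

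**Figure D1:**
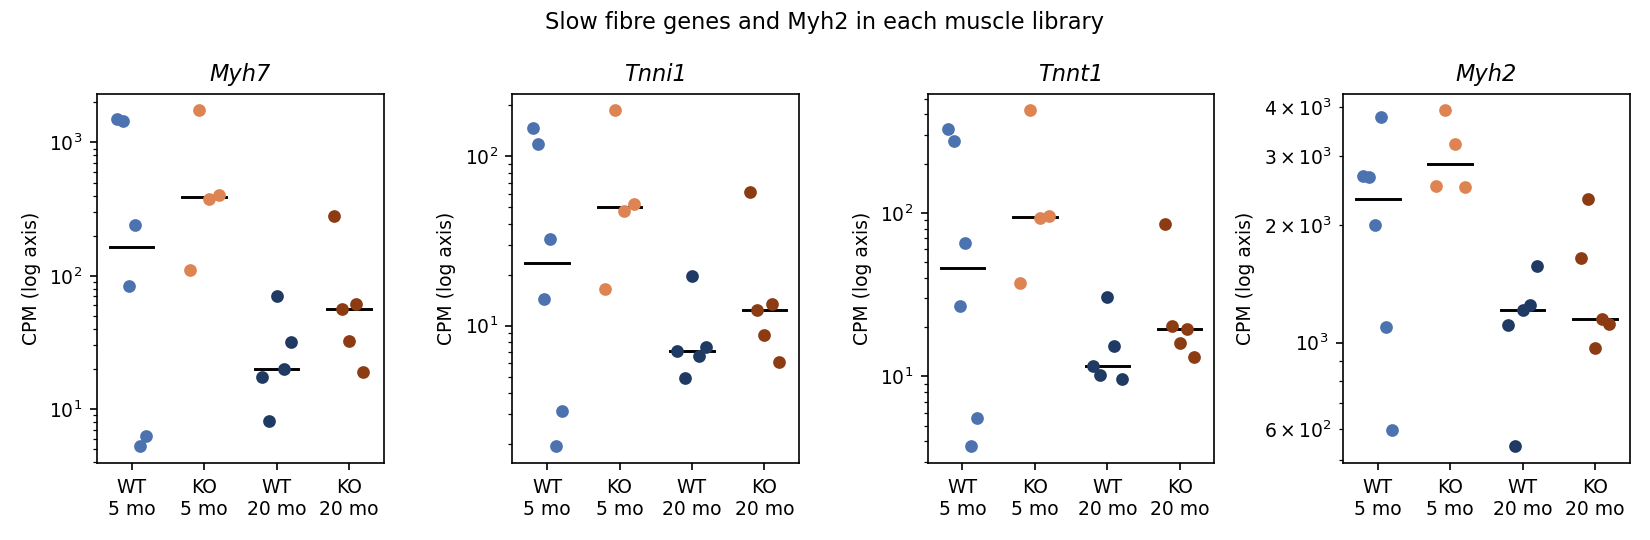
CPM on a log axis for the slow genes Myh7, Tnni1 and Tnnt1 and for Myh2, a point for each library and a bar at the group median. Myh7 in WT mice at 5 months spans 5.25 to 1506 CPM, and the other slow genes place the libraries in nearly the same order.

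Tnni1, the slow inhibitory troponin, repeated this order. Its values were 148, 119, 32.4, 14.4, 3.13 and 1.93 CPM in WT at 5 months, from mouse W5S5004 down through W5S5007, W5S5042, W5S5041 and W5S5299 to W5S5277, which is the order seen for Myh7. KO mice at 5 months had 187 (mouse K5S4285), 52.7, 47.5 and 16.4 CPM. At 20 months the WT libraries ran from 4.91 to 19.6 CPM, highest in mouse W18S45, and the KO libraries from 6.12 to 61.6 CPM, highest in mouse K18S48. Tnnt1, the slow troponin that ties the complex to tropomyosin, stood at 324, 275, 65.6, 26.8, 5.53 and 3.73 CPM in the WT mice at 5 months in the same order. In KO at 5 months it reached 424 CPM in mouse K5S4285 and fell to 37.3 CPM in mouse K5S4284. At 20 months it ran from 9.64 to 30.5 CPM in WT and from 13.2 to 85.8 CPM in KO, again highest in mice W18S45 and K18S48. The groups overlapped for all 3 slow genes in each comparison.

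Per coding kilobase, the ratio of Tnnt1 to Tnni1 stayed between 0.92 and 1.67 in all 20 libraries while Tnni1 itself varied 96.9-fold and Tnnt1 114-fold. Myh7 was steeper: its ratio to Tnni1 per kilobase ran from 0.16 in WT mouse W18S42 to 1.17 in WT mouse W5S5007, so the highest slow libraries had more heavy chain per troponin message. Over the 20 libraries and on the log2 scale, Pearson's r was 0.99 between Myh7 and Tnni1, 0.99 between Tnni1 and Tnnt1 and 0.99 between Myh7 and Tnnt1 (Spearman's rho 0.99, 0.97 and 0.98). Each had a permutation p of 1e-05, the smallest that 100000 resamples can give, and an adjusted p of 9e-05 over the 45 pairs of the 10 genes. Leaving out the 2 libraries farthest from the median of the former gene of each pair left r at 0.98, 0.99 and 0.98. Taken within groups r was 0.99, 0.99 and 0.98, and among the 16 libraries with Y-chromosome transcripts 0.99, 0.99 and 0.99.

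**Figure D2:**
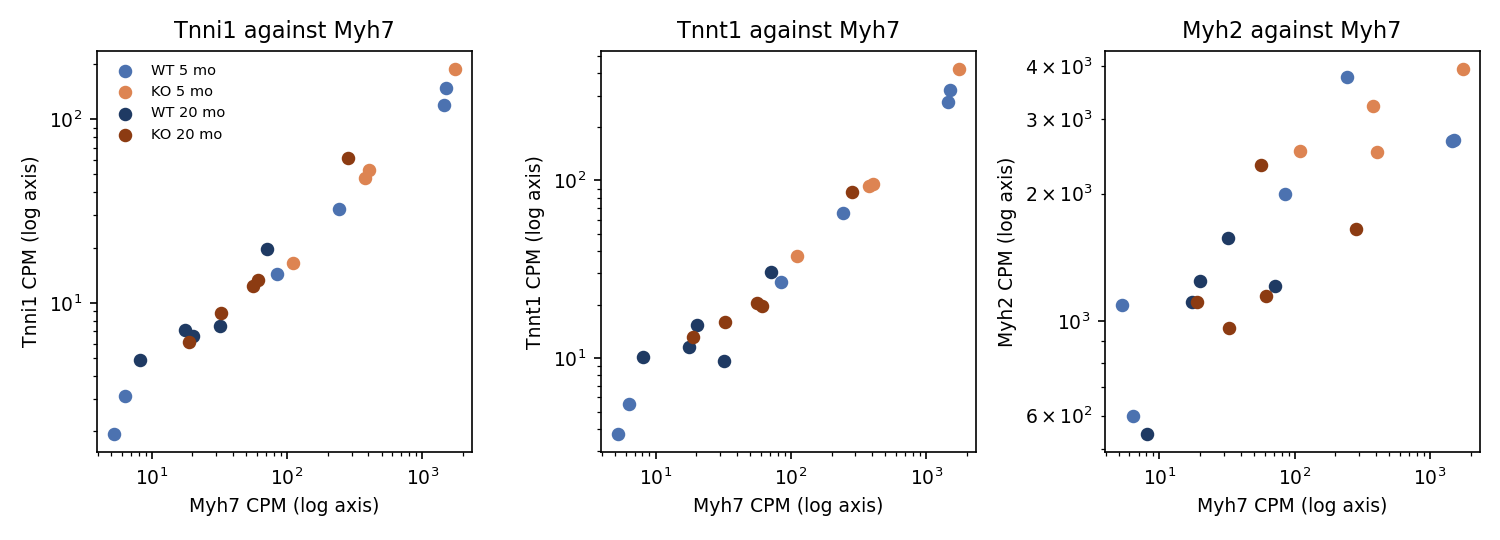
Tnni1, Tnnt1 and Myh2 against Myh7 in CPM, both axes logarithmic, a point for each of the 20 muscle libraries coloured by group. The slow troponins follow Myh7 with r = 0.99, and Myh2 follows it more loosely with r = 0.85.

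Genes outside the 10 whose log2 level was most like that of Myh7, by Pearson's r over the 20 libraries, were Tnnc1 (r = 0.99), Myl2 (0.96), Atp2a2 (0.96), Tpm3 (0.94) and Gbp6 (0.89). Tnnc1 encodes the calcium-binding troponin, Myl2 the regulatory light chain, Atp2a2 the calcium pump and Tpm3 the tropomyosin of slow fibres; Gbp6 is an interferon-induced GTPase. Tnnc1 ran from 1.17 CPM in WT mouse W5S5277 to 248 CPM in KO mouse K5S4285, Myl2 from 2.14 to 365 CPM between the same mice, and Atp2a2 from 48.1 CPM in WT mouse W18S42 to 1104 CPM in KO mouse K5S4285. Of 13 other slow fibre genes on the list, Myoz2 (r = 0.84) and Myl3 (0.82) also followed Myh7. Myl6b (0.62), Myh7b (0.51) and Ankrd2 (0.42) lay in between, whereas Csrp3 (0.26), Pln (0.02), Mybpc1 (-0.20) and Casq2 (-0.38) did not rank near it. Myh7, Myl2, Tnnc1 and Atp2a2 are also expressed by heart muscle. Heart markers (Myh6, Nppa, Tnni3, Myl7) summed to 2.84 to 16.9 CPM, with at least 1 of the 4 at 0 in 19 of 20 libraries, and to 3.94, 8.88 and 4.89 CPM in the 3 libraries with Myh7 over 1000 CPM.

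Myh2, the myosin of fast oxidative IIA fibres, followed the slow genes more loosely and over a narrower range. In WT at 5 months it stood at 3773 (mouse W5S5042), 2670 (W5S5004), 2656 (W5S5007), 1999 (W5S5041), 1094 (W5S5277) and 597 CPM (W5S5299). KO mice at 5 months had 3932 (mouse K5S4285), 3217 (K5S5116), 2523 (K5S4284) and 2502 CPM (K5S5118). At 20 months WT mice had 1574, 1246, 1210, 1111 and 543 CPM, and KO mice had 2336, 1650, 1149, 1114 and 966 CPM. The 2 WT libraries with the lowest slow gene levels at 5 months, mice W5S5277 and W5S5299, were also the lowest for Myh2 in their group. Its r with Myh7 was 0.85 (rho 0.88, adjusted p of r 9e-05 by permutation over 45 pairs), 0.81 without the 2 libraries farthest from its median, 0.76 within groups and 0.85 among libraries with Y-chromosome transcripts. Most like Myh2 among other genes were Smtnl1 (r = 0.88), Aatk (0.85), Ldhb (0.84), Plekha4 (0.84) and Bcas1 (0.84); Ldhb is the lactate dehydrogenase subunit typical of oxidative fibres.

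Myh4 and Myh1, the IIB and IIX heavy chains, were the most abundant. Myh4 ran from 49245 (mouse W5S5041) to 72841 CPM (mouse W5S5299) in WT and from 50059 to 59979 CPM in KO at 5 months, and from 43855 to 67507 CPM in WT and 48324 to 62572 CPM in KO at 20 months. Its 4 group ranges overlapped each other, and its highest library was 1.66 times its lowest. Myh1 varied 3.92-fold. It stood at 25093 (mouse W5S5277), 16554, 14477, 13600, 7855 (mouse W5S5004) and 7723 CPM (mouse W5S5299) in WT at 5 months, and at 17045, 16210, 15504 and 9011 CPM (mouse K5S4285) in KO. At 20 months Myh1 ran from 6403 to 15031 CPM in WT and from 11161 to 14562 CPM in KO, a range inside that of the WT mice. The 2 WT mice with the least slow message at 5 months thus lay at opposite ends for Myh1. Across libraries r between Myh1 and Myh4 was 0.01, with adjusted permutation p = 0.97 over the 45 pairs.

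As a share of the 4 adult heavy chain messages, each divided by its coding length, Myh4 made up 70.7% to 89.8%, Myh1 9.501% to 28.04%, Myh2 0.74% to 5.30% and Myh7 0.0059% to 2.34%. The mean share of Myh7 was 0.73% ± 0.95 (SD, n = 6) in WT and 0.89% ± 0.98 (SD, n = 4) in KO at 5 months. It was 0.046% ± 0.040 (SD, n = 5) in WT and 0.13% ± 0.17 (SD, n = 5) in KO at 20 months. Each SD was close to or above its mean, and single libraries moved these means by over 1.5 times: to 0.47% without W5S5007, 0.41% without K5S4285, 0.029% without W18S45 and 0.058% without K18S48. Myh2 took 2.87% ± 1.68 in WT and 4.19% ± 0.82 in KO at 5 months, and 1.73% ± 0.53 and 2.06% ± 0.70 at 20 months (SD, same n). These shares are a description, with no test. The 4 adult messages ranked Myh4, Myh1, Myh2, Myh7 in all 20 libraries.

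**Figure D3:**
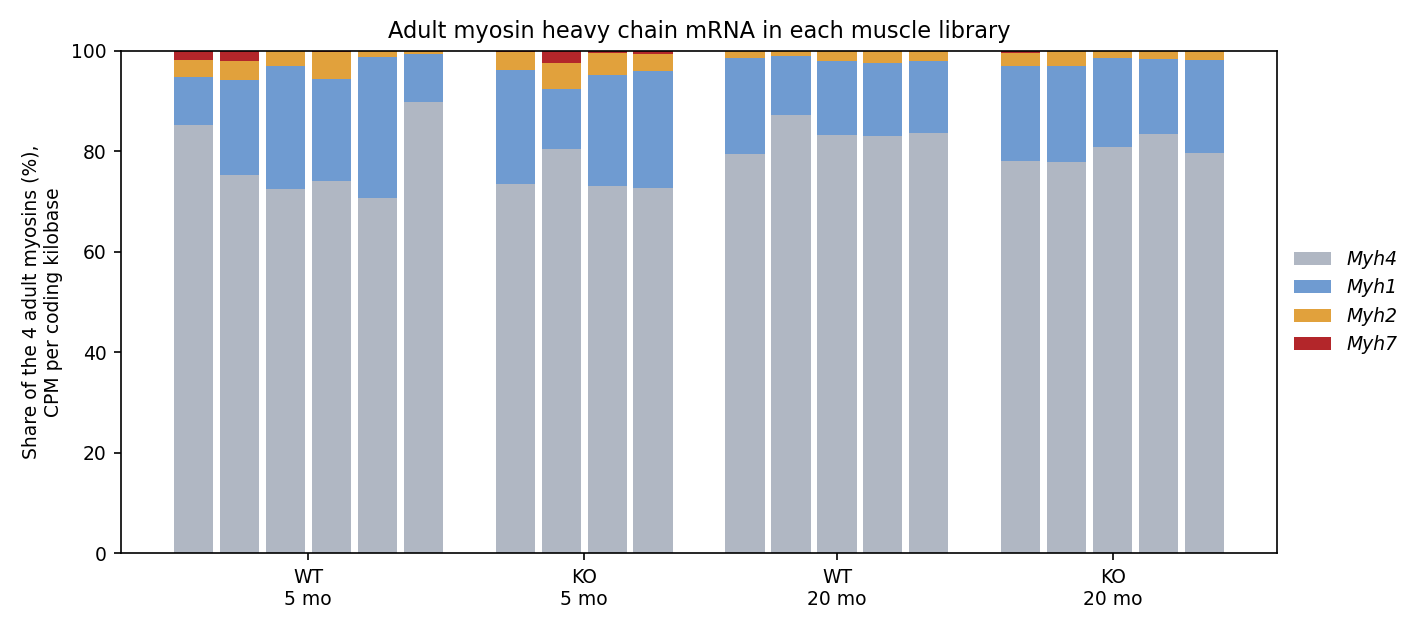
Share of Myh4, Myh1, Myh2 and Myh7 among the 4 adult myosin heavy chain messages, in CPM per coding kilobase, a bar for each of the 20 muscle libraries. Myh4 holds 70.7% to 89.8% of every bar, and Myh7 is visible at the top of a few bars, reaching 2.34%.

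Part of these messages is nearly identical in sequence. Of all windows of 100 bases in the longest annotated transcript, 9.73% of Myh1, 9.17% of Myh2, 6.61% of Myh8 and 3.85% of Myh4 occur exactly in another myosin gene, and 11.2% of Myh7 occurs in Myh6. Reads from such windows could be counted for either gene. For Myh3 the share was 1.15%, and it was 0% for the 4 troponins. Myh8 at a few CPM beside Myh4 at 43855 CPM or more is thus an uncertain level.

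Tnni2 and Tnnt3, the fast troponins, were steady. Tnni2 ran from 6720 to 11035 CPM over all libraries, a 1.64-fold range, with medians of 8548 (WT) and 8552 CPM (KO) at 5 months and 8548 and 7257 CPM at 20 months. Tnnt3 ran from 14593 to 22087 CPM, a 1.51-fold range, with medians of 16714, 17898, 18917 and 15512 CPM in the same order. KO libraries at 20 months were the lowest group for both, 7030 to 7961 CPM for Tnni2 and 14593 to 17203 CPM for Tnnt3, but they overlapped WT. Their SDs around the group means were 0.20 and 0.17 on the log2 scale, against 0.23 for the median of the 123 genes that averaged 1000 CPM or more. Tnni2 and Tnnt3 went together (r = 0.88, rho = 0.81, adjusted permutation p of r 9e-05), with r = 0.80 without the 2 farthest libraries and 0.86 within groups. The slow form was a small part of each troponin: per coding kilobase, Tnni1 was 0.029% to 2.0004% of troponin I message and Tnnt1 0.024% to 2.22% of troponin T message.

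**Figure D4:**
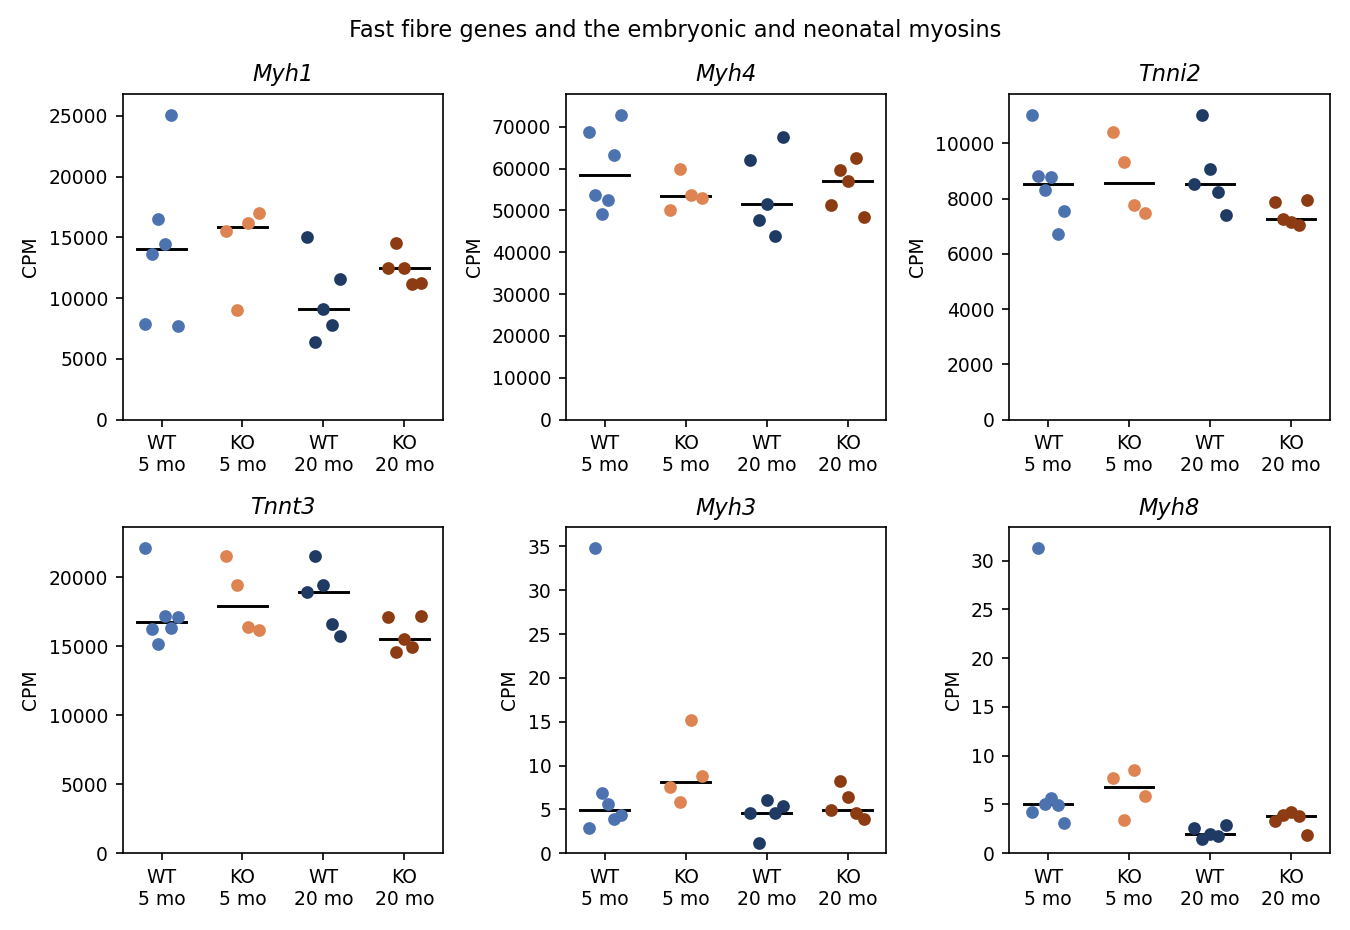
CPM from 0 for Myh1, Myh4, Tnni2 and Tnnt3 and for the embryonic and neonatal myosins Myh3 and Myh8, a point for each library and a bar at the group median. The fast genes overlap between all groups, and WT mouse W5S5007 stands alone for Myh3 (34.8 CPM) and Myh8 (31.3 CPM).

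Myh3 and Myh8, the embryonic and neonatal heavy chains, had the lowest median levels of the 10 genes. Myh3 had 34.8 (mouse W5S5007), 6.81, 5.56, 4.37, 3.87 and 2.90 CPM in WT at 5 months, and 15.2 (mouse K5S5116), 8.77, 7.53 and 5.84 CPM in KO. At 20 months it ran from 1.15 (mouse W18S42) to 6.09 CPM in WT and from 3.92 to 8.18 CPM in KO. Myh8 had 31.3 (mouse W5S5007), 5.70, 5.09, 4.97, 4.21 and 3.06 CPM in WT at 5 months, and 8.56, 7.75, 5.85 and 3.37 CPM in KO. At 20 months Myh8 had 2.89, 2.57, 1.91, 1.80 and 1.45 CPM in WT and 4.18, 3.93, 3.82, 3.29 and 1.83 CPM in KO. The WT groups of the 2 ages did not overlap for Myh8, since the highest older mouse (2.89 CPM) lay below the lowest younger mouse (3.06 CPM). Here and below, the share of all genes whose groups did not overlap was not counted, so a lack of overlap is description alone. Embryonic and neonatal myosins together made up 0.0048% to 0.092% of the message of the 6 heavy chains per coding kilobase. Their r with each other was 0.85 (adjusted permutation p = 2.6e-04), with rho = 0.65, and it was 0.59 without the 2 libraries farthest from the median of Myh3.

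WT mouse W5S5007 was also the highest of the 20 libraries for other genes of immature or denervated muscle. Actc1, the cardiac actin of developing muscle, stood at 537 CPM there, Myl4, the embryonic light chain, at 21.2 CPM, Tnnt2, the troponin T of heart and fetal muscle, at 11.2 CPM, and Chrng, the fetal acetylcholine receptor subunit, at 1.54 CPM, against medians over all libraries of 67.9, 12.9, 4.30 and 0.11 CPM. Myod1, a myogenic transcription factor, was at its lowest of all 20 libraries there (2.90 CPM, median 15.4 CPM), and Myog was at 5.30 CPM beside a median of 5.28 CPM. The genes outside the 10 most like Myh3 were Kcna1 (r = 0.76), Adamts15 (0.75), Cdhr3 (0.73), Gm38457 (0.73) and Gm41442 (0.72), and those most like Myh4 were Larp1 (0.77), Gtf3c1 (0.76), Dhx37 (0.76), Polr1a (0.75) and Pomt1 (0.72).

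KO was compared with WT first at 5 months. None of the 10 genes passed the test, and 0% of the 13237 genes tested did (limma; 543 genes had an unadjusted p under 0.05, of which none were among the 10; edgeR called 0 and DESeq2 5 genes, none of the 10). The largest differences were in the slow genes, with wide intervals. The log2 difference of Myh7 was 1.88 with a 95% confidence interval of -0.88 to 4.65, that of Tnnt1 was 1.41 (-0.66 to 3.48) and that of Tnni1 was 1.30 (-0.67 to 3.28). For Myh2 it was 0.72 (-0.12 to 1.57). The fast genes were held to narrow intervals: -0.14 (-0.50 to 0.23) for Myh4, 0.04 (-0.26 to 0.34) for Tnni2 and 0.08 (-0.21 to 0.38) for Tnnt3. The intervals of the slow genes hold no difference as well as one of several-fold.

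At 20 months none of the 10 genes passed between KO and WT, beside 0.0302% of all genes tested (4 of 13237). None of the 10 had an unadjusted p under 0.05, and neither edgeR nor DESeq2 called any of them. Myh7 had a log2 difference of 1.26 (95% interval -1.44 to 3.97), Tnni1 0.74 (-1.19 to 2.68) and Tnnt1 0.71 (-1.31 to 2.74). Myh1 stood at 0.37 (-0.23 to 0.97), Myh4 at 0.05 (-0.31 to 0.40), Tnni2 at -0.24 (-0.54 to 0.06) and Tnnt3 at -0.21 (-0.50 to 0.08). The difference of the genotype effects at the 2 ages was tested as an interaction, in which 0 of the 10 genes and 0% of all genes passed (limma; 438 genes had an unadjusted p under 0.05, none of the 10, and neither edgeR nor DESeq2 called any of the 10). Among the 10 genes the smallest adjusted p in that interaction was 0.999, and for Myh7 the difference was -0.62 (95% interval -4.49 to 3.25).

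Age was then compared within each genotype. In WT, 1 of the 10 genes passed beside 18.6% of all genes tested (2463 of 13237), so the share of called genes was no higher than the background. That background itself moved with single libraries, to 1182 genes without W18S42, the library with hepatocyte message, and 3842 without W5S5277. Over all genes 1446 rose and 1017 fell, against 1207 and 1259 by edgeR and 1776 and 792 with reads scaled to the library total. Myh8 fell, with a log2 difference of -1.27 (SE 0.38, 95% interval -2.05 to -0.48, adjusted p = 0.026 by limma), to 0.42 of its level at 5 months on the scale of CPM plus 1. Without WT mouse W18S42 at 20 months, the library with hepatocyte message, Myh8 no longer passed (log2 difference -1.18, adjusted p = 0.070), nor did it without mouse W18S45 (-1.25, adjusted p = 0.050) or mouse W18S66 (-1.23, adjusted p = 0.062). Over all 31 alternatives its difference stayed negative, its adjusted p ranged from 3.3e-04 to 0.077, and 24 of them called it. Myh7 fell short of the threshold with a log2 difference of -2.22 (95% interval -4.81 to 0.38, adjusted p = 0.21), as did Tnnt1 (-1.46, -3.40 to 0.47), Tnni1 (-1.26, -3.11 to 0.59) and Myh2 (-0.75, -1.54 to 0.04). Without WT mouse W5S5299 at 5 months, Myh2 passed (-1.07, adjusted p = 0.027, limma). The median log2 difference of the 10 genes was -0.68, beside 0.03 over all genes tested.

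In KO, 0 of the 10 genes passed with age beside 5.57% of all genes tested (737 of 13237, of which 477 rose and 260 fell, or 1047 and 162 with reads scaled to the library total; 131 genes passed without K5S4284). Myh2 and Tnnt1 had an unadjusted p under 0.05, and neither edgeR nor DESeq2 called any of the 10. So had 3386 of all 13237 genes tested (limma). For Myh2 the groups did not overlap: the lowest KO mouse at 5 months (2502 CPM) lay above the highest at 20 months (2336 CPM). The share of all genes without overlap was not counted, so this describes Myh2 alone. The log2 difference of Myh2 was -1.13 (SE 0.42, 95% interval -2.01 to -0.25, adjusted p = 0.11, limma). The slow genes had -2.84 (95% interval -5.71 to 0.04) for Myh7, -2.16 (-4.31 to -0.02) for Tnnt1 and -1.82 (-3.87 to 0.23) for Tnni1, with adjusted p = 0.20, 0.19 and 0.24. Of the 10 genes, 9 had a negative difference, and the exception, Myh4, stood at 0.04 (-0.34 to 0.41). These age comparisons share their groups with the genotype comparisons, and 4 of the 10 younger but none of the older libraries lacked Y-chromosome transcripts.

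**Figure D5:**
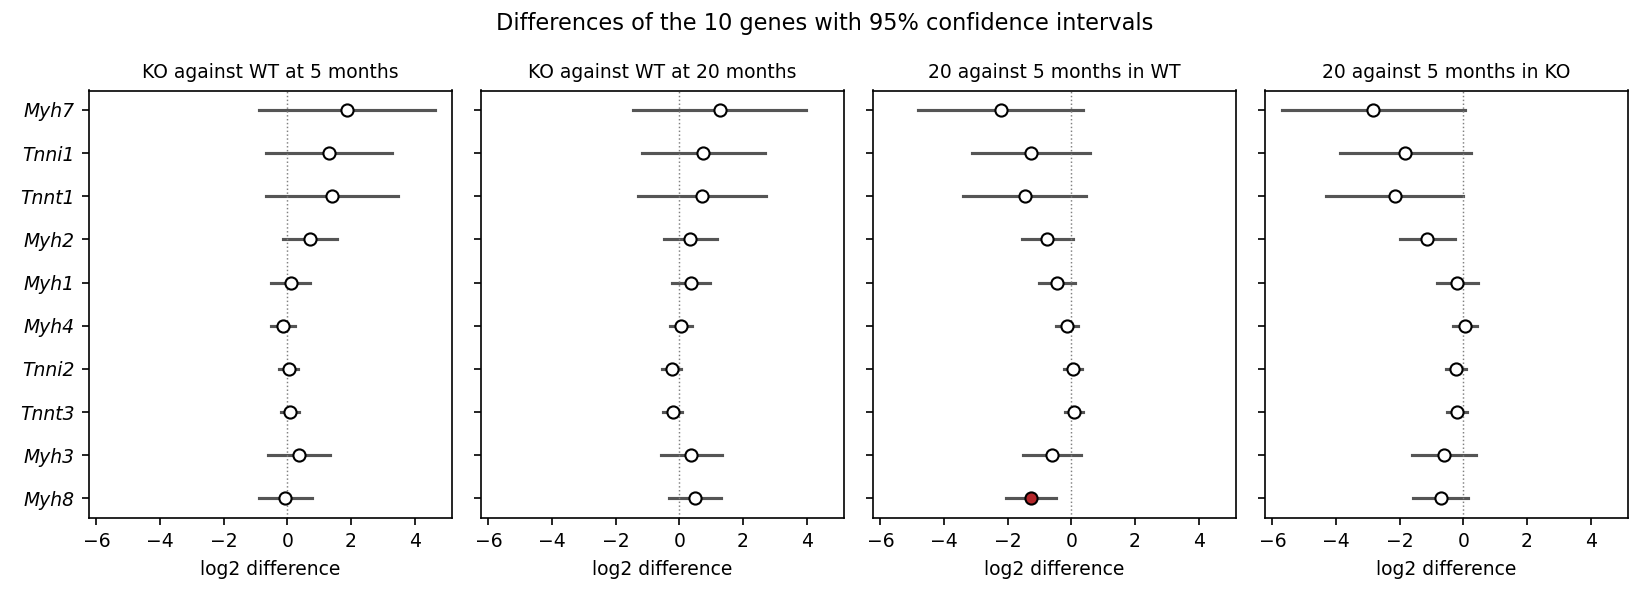
Log2 differences of the 10 genes in 4 comparisons, with 95% confidence intervals as lines and a filled point where the adjusted p was under 0.05. Intervals of Myh7, Tnni1 and Tnnt1 span several log2 units, those of Myh4, Tnni2 and Tnnt3 less than 1, and Myh8 in WT with age is the only filled point.

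The 3 libraries with the highest slow message, WT mice W5S5004 and W5S5007 and KO mouse K5S4285, were left out in an alternative chosen after the values were seen. Without them the log2 difference of Myh7 with age in WT was -0.36, and that of Tnni1 turned to 0.04 (adjusted p = 0.98), while in KO Myh8 passed the test (-0.94, adjusted p = 0.030, limma). Counting tests on the recovered reads, which compare mean levels, called more of the slow genes lower in old WT muscle: edgeR called Myh7 (-4.23, adjusted p = 0.029) and Tnnt1 (-2.95, adjusted p = 0.043) beside Myh8, and DESeq2 called Myh7 (-4.23, adjusted p = 0.0014), Tnnt1, Tnni1 and Myh2 (-0.94, adjusted p = 0.041) beside Myh8.

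Other genes of slow fibres were read from a list of 13. With age in WT, 3 of the 13 fell and none rose, beside the background of 18.6%. Tnnc1, Myl2, Atp2a2 and Tpm3, most like Myh7 on this list, were negative but not called (adjusted p = 0.23, 0.53, 0.092 and 0.058, limma). Of those called, Myoz2 followed Myh7 closely (r = 0.84), and Myh7b (0.51) and Ankrd2 (0.42) did so less. Myh7b, a slow heavy chain gene, fell by 0.96 on the log2 scale (adjusted p = 0.014), from a median of 9.91 to 3.89 CPM. Myoz2, an anchor of calcineurin at the Z-disc, fell by 1.15 (adjusted p = 0.017), from 161 to 53.5 CPM. Ankrd2, a stretch-responsive gene, fell by 1.66 (adjusted p = 0.038), from 940 to 170 CPM, although WT mouse W18S41 held 1628 CPM at 20 months. Ankrd2 lost its call without any of 6 single libraries (WT mice W18S42, W18S66 and W18S72 at 20 months and W5S5007, W5S5041 and W5S5042 at 5 months), and in 7 other alternatives, among them edgeR, DESeq2 and a sex covariate. Myh7b and Myoz2 kept theirs without each single library but lost it among libraries with Y-chromosome transcripts alone, Myoz2 also with the 2 groups alone and without the 3 libraries highest in Myh7 (highest adjusted p = 0.073 for Myh7b and 0.11 for Myoz2, limma). In KO none of the 13 passed with age, with a smallest adjusted p of 0.057 (limma; 6 had an unadjusted p under 0.05), and none passed between genotypes. The median log2 difference with age of the list was -0.96 in WT and -1.09 in KO, and 12 and 11 of the 13 were negative.

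Of 10 other fast fibre genes, 1 rose with age in WT, beside 18.6% of all genes called: Tpm1, a tropomyosin, by 0.48 on the log2 scale (adjusted p = 0.016), from a median of 13046 to 17253 CPM with no overlap between the groups. Its highest value, 23770 CPM, was in mouse W18S42, and without that mouse the call was lost, as it was with Y-chromosome libraries alone, with the 2 groups alone, with no filter and without the 3 libraries highest in Myh7. None of the 10 passed in any other comparison. Between KO and WT at 20 months, 7 of the 10 had an unadjusted p under 0.05, as did 1821 of all 13237 genes tested, and 9 had a negative difference, with a smallest adjusted p of 0.30 (limma). Pvalb, the calcium buffer of fast fibres, had -0.49 and Tpm1 -0.49 there. In the interaction all 10 had a negative difference and 0 passed, with a median of -0.32 beside -0.04 over all genes.

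Of 7 developmental and regeneration genes tested, 2 fell with age in WT, beside 18.6% of all genes called, and the eighth on the list, Chrng, was below the filter. Actc1 fell by 2.30 on the log2 scale (adjusted p = 0.0062), from a median of 231 to 35.3 CPM. Ncam1, an adhesion molecule of immature and denervated fibres, fell by 1.09 (adjusted p = 0.0015), from 12.6 to 5.57 CPM without overlap. Both kept their call in every one of the 31 alternatives. Ncam1 also fell with age in KO, by 0.81 (adjusted p = 0.026), a call lost without any of 6 single libraries (mice K18S62, K18S63, K18S64, K5S4284, K5S5116 and K5S5118), with a sex covariate, among libraries with Y-chromosome transcripts alone and with no filter (highest adjusted p = 0.11). Neither passed the test between genotypes.

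Among 18 regulators of fibre type, 4 rose with age in WT, beside 1446 of 13237 genes over the whole table. Maf, a large Maf factor that promotes type IIB myosin, rose by 1.11 on the log2 scale (adjusted p = 0.015), from a median of 38.7 to 95.7 CPM. Mef2c rose by 0.83 (adjusted p = 0.032) and Six4, a partner of the fast fibre program, by 0.61 (adjusted p = 0.049). Tbx15, a T-box factor of fast fibres, rose by 0.33 (adjusted p = 0.045). Calls of Mef2c, Six4 and Tbx15 were lost in 11, 22 and 19 of the 31 alternatives, and that of Maf in 2. None of these 4 passed in KO with age or between genotypes. Of 9 sarcomere genes of all fibres, Actn2 alone passed, beside 18.6% of all genes called, falling by 1.02 with age in WT (adjusted p = 0.016), a call lost without WT mouse W18S42 at 20 months, with Y-chromosome libraries alone and with the 2 groups alone.

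Some markers of other cells moved with age as well, beside 18.6% of all genes called in WT and 5.57% in KO. In WT, 2 of 3 smooth muscle markers (Myh11 and Cnn1) fell. So did 1 of 3 fibroblast (Col1a1), 1 of 3 endothelial (Pecam1) and 1 of 3 macrophage markers (Cd68). Only 1 of 3 satellite cell (Pax7) and 1 of 4 adipocyte markers (Lep) rose. Lep was low, with medians of 0.41 CPM at 5 months and 5.38 CPM at 20 months. The other adipocyte (Cidec -1.42, Adipoq -0.69, Plin1 -0.11) and satellite cell markers (Cdh15 -0.02, Myf5 -0.13) had negative log2 differences, and none passed. Among the cell types with a falling marker, Kdr of endothelium went the other way (0.70) and did not pass. In KO, Cnn1 and Col1a1 fell. Summed smooth muscle markers ran from 94.1 to 180 CPM at 5 months and from 42.7 to 112 CPM at 20 months in WT, and macrophage markers from 25.9 to 69.0 and 10.4 to 71.2 CPM. None of the markers named here passed between genotypes. The part of these cells in the age differences above was not tested. No tendon, red cell, heart or skeletal muscle marker passed in any comparison.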

How the data were processed

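The deposited table gives, for 36333 rows and 64 libraries, values whose headings call them CPM; the unit recorded for them is a scaled signal, since the authors' columns sum to differing totals, and the step that scaled them is not given in the sources used here. Per the labels, poly-A RNA was sequenced from directional libraries; whether counting used strand is not stated, so overlapping antisense reads cannot be told apart. The build GRCm38.p6 (mm10) is named in the submitters' processing notes.

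Every value was a whole multiple of 1 read (100% within 0.01 of a whole read), so reads were recovered. The main test was limma 3.58.1 with a trend on log2(CPM + 1) over all 4 muscle groups, for 13237 genes above 1 CPM in at least 4 libraries, with Benjamini-Hochberg adjustment over those genes and calls at an adjusted p under 0.05 in each of 5 comparisons. A pseudocount of 1 understates changes of low genes such as Myh8. The alternatives were edgeR 4.0.16 and DESeq2 1.42.0 on the recovered reads, other scalings, pseudocounts and filters, a sex covariate, fewer groups, array weights and each library left out. The tests were tested on simulated data.

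All 10 genes are named, with those called on 5 lists of fibre genes (at most 4 in each direction and comparison), Myc, and the 5 genes most correlated with Myh7, Myh4, Myh2 and Myh3; genes named for other reasons were chosen after their values were seen. The genes and lists were chosen with earlier results of these data known. Identifiers were matched to symbols by RefSeq (35336 of 36332). No 2 libraries of a group agreed within sampling noise (lowest chi-square per degree of freedom 14.5). Sequences are from RefSeq, GRCm38.p6. Some items of the lists are not reported here.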

Additional observations from a re-analysis of the deposited data

Results flagged for a closer look

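In all, 44 sets of values were examined (10 genes and the Myh7 share in 4 groups). Of these, 11 had a library at the top whose gap to the nearest other exceeded the 95% limit of Dixon's test for that group size. That limit, passed by about 1 in 20 sets by chance, holds for normally distributed values. CPM and shares were examined without a log, and skewed values can pass it more often. The count of 11 therefore cannot be read as an excess over chance. The values are also not independent, since the slow genes go together. KO mouse K18S48 at 20 months stood apart for Myh7 (282 CPM), Tnni1 (61.6 CPM), Tnnt1 (85.8 CPM) and the Myh7 share of adult myosin message (0.43%). WT mouse W18S45 at 20 months did so for Tnni1 (19.6 CPM), Tnnt1 (30.5 CPM) and the Myh7 share (0.11%). At 5 months KO mouse K5S4285 stood apart for Tnnt1 (424 CPM), WT mouse W5S5007 for Myh3 (34.8 CPM) and Myh8 (31.3 CPM), and WT mouse W5S5004 for Tnnt3 (22087 CPM). The WT mice of 5 months had no such gap for Myh7, although their values ran from 5.25 to 1506 CPM.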

How the results depend on the processing

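The genotype comparisons and the interaction called 0 of the 10 genes under each alternative run. With age in WT, the count of 1 became 3 by edgeR, 5 by DESeq2 and 0 with a pseudocount of 5, with no filter on low values, with the libraries carrying Y-chromosome transcripts alone and with the 2 groups alone; leaving out single libraries gave 0 to 2. With age in KO, the count of 0 became 2 with the 2 groups alone (Myh2 and Myh7), 1 with array weights (Myh2) and 1 without the 3 libraries with Myh7 over 1000 CPM (Myh8). Beyond the smaller number of samples in some of these, the cause was not tested. Without length scaling the mean Myh7 share of each group was 0.73%, 0.89%, 0.046% and 0.13% (WT and KO at 5 months, then at 20), and without single libraries it ran from 0.47% to 0.87%, 0.41% to 1.14%, 0.029% to 0.054% and 0.058% to 0.16%. Of the 10 genes, Myh8 with age in WT, the only call of the main test, kept its sign under these alternatives. Tnni1 with age in WT, called lower by DESeq2 (adjusted p = 0.026), stood at 0.04 without the 3 libraries with Myh7 over 1000 CPM. No paired analysis was possible because the muscle groups share no animal numbers. With 1 read worth 0.05 to 0.0821 CPM, Myh3 and Myh8 fell as low as 1.15 and 1.45 CPM, or 19 and 24 reads. Around the group means, the SD on the log2 scale was 0.79 for Myh3 and 0.67 for Myh8. It was 1.62 to 2.28 for the slow genes, and the median over all genes tested was 0.26. How much of this spread comes from depth, from other technical steps or from the animals was not tested. Over all genes, the count of 2463 called with age in WT became 937 with the libraries carrying Y-chromosome transcripts alone, 1055 with the 2 groups alone, 3900 with array weights, 968 without the 3 libraries, 1182 without W18S42, 1279 without W18S66, 1572 without W5S5007, 1536 without W5S5042 and 3842 without W5S5277. With age in KO, 737 became 1434 by DESeq2, 1209 with scaling to the library total (which moved the median of all genes by 0.10), 461 with no filter, 182 with a sex covariate, 275 with Y-chromosome libraries alone, 1746 with the 2 groups alone, 3133 with array weights and 448 without the 3 libraries. Without single libraries it became 386 (K18S61), 351 (K18S63), 290 (K18S64), 131 (K5S4284), 425 (K5S4285), 366 (K5S5116), 342 (K5S5118) and 1305 (W5S5277). Between genotypes at 20 months, 4 became 49 by DESeq2, 17 with array weights, 8 with scaling to the library total, 7 with a sex covariate, 2 with a pseudocount of 5 or Y-chromosome libraries alone and 1 without W18S72, and at 5 months 0 became 5 by DESeq2 and 1 with no filter or a sex covariate. In the interaction 0 became 1 by DESeq2 and 1 with Y-chromosome libraries alone.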

Other observations

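Outside muscle the 10 genes were near 0. In 22 adipose libraries the median was at most 1.11 CPM for each gene, yet library W5F5277 (WT at 5 months) reached 233 CPM of Myh4, 139 CPM of Tnnt3, 69.7 CPM of Tnni2 and 49.3 CPM of Myh1 with 0.58 CPM of Tnni1. The muscle library with the same animal number had the lowest levels of Myh7, Tnni1 and Tnnt1 of all 20. In 22 liver libraries Tnnt1 ran from 0.36 to 1.70 CPM, and the other 9 genes had a median under 0.1 CPM. The level of muscle message in adipose tissue was described and not tested.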
